A study of Mus musculus with 10 samples.

Results

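The fibroblast growth factor (FGF) receptor genes Fgfr1, Fgfr2, Fgfr3 and Fgfr4 and the FGF ligand genes Fgf2, Fgf7, Fgf10 and Fgf18 were followed across mouse skin and bone marrow stromal cells by bulk RNA sequencing. The members were chosen by gene symbol, and the rule sets no threshold on their values. All 8 were listed among the 14995 genes of the deposited count table, and all 8 passed the filter on low counts in each comparison. The 3 groups were freshly sorted from cells that lacked CD45, TER119 and CD31, the surface markers of leukocytes, erythroid cells and endothelium. Skin Ebf2+ cells (n = 3 libraries) came from the dorsal skin of FVB/N mice of 8 to 12 weeks; Ebf2 is a transcription factor known from fat and mesenchymal precursors. Skin Ebf2- cells (n = 3) came from the same tissue, strain and age and were positive for CD140a and Sca1, a pair of surface proteins that marks the population called PαS. Bone marrow mesenchymal stem cells (n = 4), called bone marrow below, were positive for SCA1 and CD51 and came from C57BL/6 mice of 8 to 10 weeks. The design text gives 3 mice for skin and 4 for bone marrow, and the labels credit bone marrow 1, 2 and 3, but not 4, to an earlier study. The sources used here do not say how Ebf2 was detected in the sort.

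FGF ligands are secreted proteins that bind tyrosine kinase receptors on nearby cells together with heparan sulphate chains on the cell surface and in the matrix. Bound receptors signal through adaptor proteins to the RAS and MAP kinase cascade, which turns on ETS factors such as Etv1 and Etv4 and feedback inhibitors such as the Sprouty proteins. In skin, FGFs made by dermal cells act on keratinocytes and hair follicles, and in the skeleton FGF signalling steers cartilage growth and bone formation.

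Depth ran to 9.83 to 13.0 M counts per library in skin Ebf2+, 11.6 to 14.1 M in skin Ebf2- and 18.1 to 39.4 M in bone marrow. By these unscaled totals, 3 counts in a library corresponded to between 0.0761 and 0.305 counts-per-million units (CPM). The CPM values printed below are also scaled between libraries (TMM), which shifts this range. The 10 markers of the sorted stromal cells summed to 18503 to 43577 CPM per library, though not each was high in every library. Library 3 of each skin group had little Thy1, at 11.7 (Ebf2+) and 8.53 CPM (Ebf2-), against 248 CPM or more elsewhere. Ebf2 itself was at 210, 317 and 156 CPM in skin Ebf2+, at 70.5, 73.6 and 47.0 CPM in skin Ebf2- and between 141 and 338 CPM in bone marrow. The 5 leukocyte markers summed to 1135 CPM in skin Ebf2- 2, with Cd3e at 709, Cd74 at 267 and Ptprc, which encodes CD45, at 62.0 CPM, against at most 94.7 CPM in any other library. All 4 ligand members were higher there than in skin Ebf2- 1 and 3, and the part of leukocyte RNA in those levels was not tested. Bone marrow 1 and 4 nearly coincided: their counts differed by a median chi-square of 0.929 per gene, against 47.9 to 103 for the other marrow pairs. They were kept as separate libraries, so their shared profile has more weight in the marrow means. If they are not independent, the SEs, SDs and p-values that involve bone marrow count too many replicates and understate the uncertainty. Results that change when they are summed are given both ways. Tissue, strain, sort markers, stated age range and depth differ together between skin and bone marrow and cannot be told apart. For bone marrow 1 to 3 the earlier study is a further such difference. The p-values below measure the spread between libraries. In bulk samples, fewer cells that express a gene and less RNA per cell cannot be told apart either.

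Promoter sequence is shown for Fgfr4, the member whose levels differ most between the groups, and for Fgf7 and Fgf18, the ligands with the highest level per length. Each is the 250 bases before the transcription start in RefSeq (GRCm38.p6), 5′ to 3′ on the gene's own strand, with capitals marking the GC box GGGCGG on either strand. The Fgfr4 stretch is chr13:55152568-55152817 (+ strand), before a gene that spans chr13:55152818-55168759. The Fgf7 stretch is chr2:126034408-126034657 (+ strand), before chr2:126034658-126091185, and the Fgf18 stretch is chr11:33147401-33147650 (- strand), before chr11:33116970-33147400.
Fgfr4: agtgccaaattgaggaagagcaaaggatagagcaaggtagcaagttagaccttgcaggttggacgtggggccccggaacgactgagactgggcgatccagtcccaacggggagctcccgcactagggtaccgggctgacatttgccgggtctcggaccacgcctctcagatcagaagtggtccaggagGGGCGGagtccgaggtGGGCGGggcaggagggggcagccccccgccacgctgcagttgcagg
Fgf7: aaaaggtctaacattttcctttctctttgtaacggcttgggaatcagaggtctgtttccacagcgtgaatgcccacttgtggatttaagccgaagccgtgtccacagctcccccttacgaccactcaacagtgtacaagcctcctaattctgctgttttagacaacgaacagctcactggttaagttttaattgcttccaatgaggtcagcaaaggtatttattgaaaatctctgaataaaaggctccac
Fgf18: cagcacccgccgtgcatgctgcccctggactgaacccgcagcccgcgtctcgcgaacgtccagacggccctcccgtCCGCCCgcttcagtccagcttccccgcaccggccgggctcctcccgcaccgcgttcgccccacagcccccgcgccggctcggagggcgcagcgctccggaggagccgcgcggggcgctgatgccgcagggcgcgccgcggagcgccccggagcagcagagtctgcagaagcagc

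The Fgfr4 promoter held 15 CpG dinucleotides and 2 GC boxes, the Fgf7 promoter 6 CpGs and no GC box, and the Fgf18 promoter 37 CpGs and 1 GC box. The median over 32851 RefSeq mouse promoters of the same length was 6 CpGs, and 32.7% of them held a GC box. The TATA box TATAAA, also searched on both strands, is in none of the 3 windows and in 12.4% of all promoters. Promoter entries were found for 7 of the 8 members, all but Fgfr1. The other members lie at chr8:25518759-25575718 (Fgfr1, + strand), chr7:130162451-130266808 (Fgfr2, - strand), chr5:33721724-33737068 (Fgfr3, + strand), chr3:37348477-37410106 (Fgf2, + strand) and chr13:118714699-118792573 (Fgf10, + strand).

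Of the receptors, Fgfr1, the FGF receptor typical of mesenchymal cells, was high in every library. It stood at 345, 276 and 208 CPM in skin Ebf2+, at 268, 246 and 229 CPM in skin Ebf2- and at 361, 377, 282 and 375 CPM in bone marrow 1 to 4. The skin groups overlapped, whereas every skin Ebf2- library lay below every bone marrow library. That gap was small: the fitted log2 fold change of skin Ebf2- over bone marrow was -0.49 ± 0.39 (SE; edgeR adjusted p = 0.680). Skin Ebf2+ differed from skin Ebf2- by a log2 fold change of 0.15 ± 0.52 and from bone marrow by -0.34 ± 0.38, neither of which passed the test.

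Fgfr2 makes an epithelial isoform, which binds Fgf7 and Fgf10, and a mesenchymal isoform by alternative splicing, and the gene counts do not separate them. Fgfr2 was at 1.86, 0.262 and 34.0 CPM in skin Ebf2+, at 108, 14.3 and 95.4 CPM in skin Ebf2- and at 88.1, 137, 61.9 and 82.5 CPM in bone marrow. A pair of the skin Ebf2+ libraries was thus lower than all others, and the third lay between the skin Ebf2- libraries. All skin Ebf2+ libraries were below all bone marrow libraries, yet the fitted log2 fold change of -2.94 ± 1.21 did not pass (edgeR adjusted p = 0.273). Without skin Ebf2+ 3 it was -6.47 with an edgeR adjusted p of 0.0235. The log2 fold change of skin Ebf2+ over skin Ebf2- was -2.59 ± 1.45, also short of the threshold.

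Fgfr3, known as a brake on growth plate cartilage, was low and uneven. It was at 2.21, 0.698 and 14.6 CPM in skin Ebf2+, at 14.2, 1.94 and 11.7 CPM in skin Ebf2- and at 0.686, 7.97, 10.0 and 0.700 CPM in bone marrow. The 3 groups overlapped, and bone marrow 1 and 4 were at the bottom of the range together. The fitted log2 fold changes were -0.67 ± 1.39 for skin Ebf2+ over skin Ebf2-, 0.27 ± 1.35 for skin Ebf2+ over bone marrow and 0.94 ± 1.34 for skin Ebf2- over bone marrow.

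**Figure D1:**
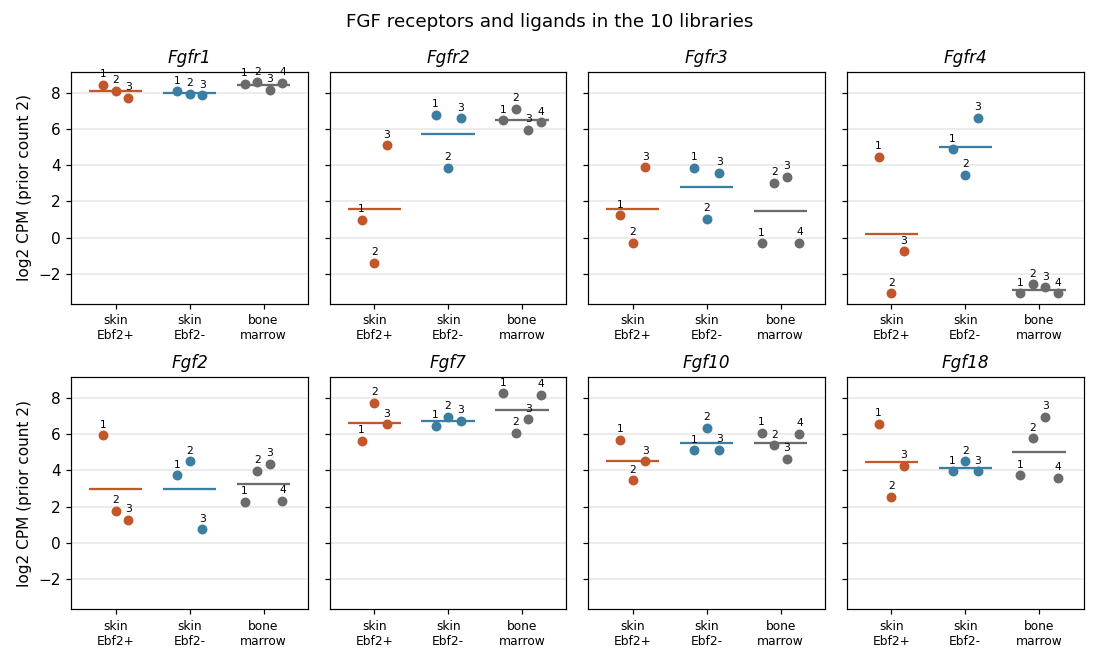
Level of each receptor and ligand in every library, as log2 CPM (vertical axis), for skin Ebf2+, skin Ebf2- and bone marrow (horizontal axis). Points are single libraries with their replicate number and bars are group means. Fgfr1 is high in all 10 libraries, and Fgfr4 is at the bottom of the scale in bone marrow and in skin Ebf2+ 2, where it had 0 reads.

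Fgfr4, known chiefly as the liver receptor for the gut hormone Fgf15, was the only member that passed a test with all libraries in the fit. It was at 29.3, 10.9 and 96.5 CPM in skin Ebf2- (399, 158 and 1233 reads) and at 0, 0.0489, 0.0299 and 0 CPM in bone marrow (2 reads in all). Every skin Ebf2- library was above every bone marrow library, with a fitted log2 fold change of 10.66 ± 2.08 (edgeR adjusted p = 0.0384), where 0.730% of all genes tested passed. By reads alone, 1790 against 2, the ratio of skin Ebf2- to bone marrow was 2065 with a 95% counting interval of 571 to 17064. The call was lost on leaving out any 1 of the 7 libraries of the comparison: the edgeR adjusted p was 0.0875, 0.0677 and 0.123 without skin Ebf2- 1, 2 and 3, and 0.113, 0.0994, 0.118 and 0.105 without bone marrow 1, 2, 3 and 4. With bone marrow 1 and 4 summed it was 0.105, while the log2 fold change was 10.56.

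In skin Ebf2+ the 3 libraries disagreed on Fgfr4. Skin Ebf2+ 1 had 21.9 CPM (188 reads), within reach of skin Ebf2-, skin Ebf2+ 2 had 0 reads and skin Ebf2+ 3 had 0.469 CPM (6 reads). The group therefore overlapped both others. Against skin Ebf2- the log2 fold change was -2.61 ± 1.74, and against bone marrow it was 8.05 ± 1.92 (edgeR adjusted p = 0.0718). By reads, 194 against 2, skin Ebf2+ exceeded bone marrow by a ratio of 278 with a 95% counting interval of 76.0 to 2315, most of it from skin Ebf2+ 1. Without skin Ebf2+ 1 the log2 fold change was 3.08 (edgeR adjusted p = 0.349), and the call was made without skin Ebf2+ 2 (edgeR adjusted p = 0.0269) or without skin Ebf2+ 3 (0.0454). In the authors' deposited table Fgfr4 passed in both comparisons with bone marrow, with log2 fold changes of 8.54 for skin Ebf2+ (adjusted p = 7.80e-05) and 11.11 for skin Ebf2- (adjusted p = 5.44e-08), and no other member passed.

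The genes whose pattern over the 10 libraries was most like that of Fgfr4 were Cd7, Dsc1 and Otulinl, out of 14519 candidates. Their centred log2 levels differed from those of Fgfr4 by a root mean square of 1.16, 1.41 and 1.45, where Fgfr4 itself had an SD of 3.95.

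Markers of keratinocytes, for which the labels name no gate, moved with some receptors in skin. All 8 markers of the list were measured, and they summed to 121, 20.3 and 968 CPM in skin Ebf2+, to 746, 203 and 515 CPM in skin Ebf2- and to 1.10 to 5.54 CPM in bone marrow, where Krt14 and Epcam had 0 reads. Within each skin group the order of the libraries by this sum was also their order by Fgfr2 and by Fgfr3. In bone marrow, Fgfr2 stood at 61.9 to 137 CPM with these markers near 0. For Fgfr4 the order did not hold: skin Ebf2+ 3 had the highest keratinocyte sum and 0.469 CPM of Fgfr4. The part of keratinocyte RNA in the skin values was not tested.

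**Figure D2:**
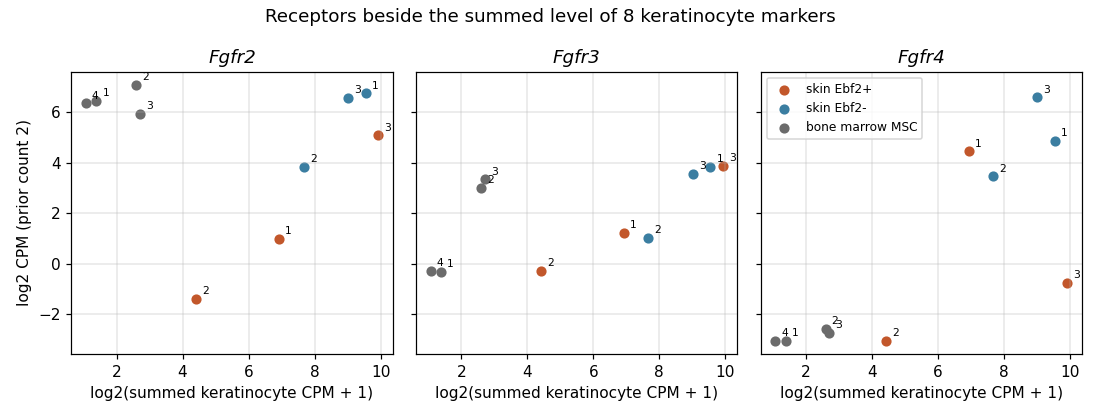
Log2 CPM of Fgfr2, Fgfr3 and Fgfr4 (vertical axis) against the summed CPM of 8 keratinocyte markers on a log2 scale (horizontal axis), 1 point per library with its replicate number. Within each skin group, libraries with larger sums have more Fgfr2 and Fgfr3, bone marrow has 61.9 to 137 CPM of Fgfr2 at sums of 1.10 to 5.54 CPM, and skin Ebf2+ 3 has little Fgfr4 at the highest sum.

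Per kilobase of exon, Fgfr1 was the leading receptor in 9 of the 10 libraries, with 37.8% to 99.6% of the level of the 4 receptors over all libraries. The exception was skin Ebf2- 3, in which Fgfr4 held 44.4% and Fgfr1 37.8%. In skin Ebf2+ the mean levels were 28.0 ± 6.97 CPM per kilobase for Fgfr1, 2.10 ± 3.53 for Fgfr4, 1.17 ± 1.84 for Fgfr2 and 0.816 ± 1.07 for Fgfr3 (SD, n = 3), and the last 3 did not differ beyond their spread. In skin Ebf2- they were 25.1 ± 2.00 for Fgfr1, 12.9 ± 12.7 for Fgfr4, 7.03 ± 4.93 for Fgfr2 and 1.30 ± 0.905 for Fgfr3 (SD, n = 3), with Fgfr4 overlapping its neighbours on either side. In bone marrow they were 35.3 ± 4.57 for Fgfr1, 8.95 ± 3.09 for Fgfr2, 0.677 ± 0.680 for Fgfr3 and 0.00556 ± 0.00679 for Fgfr4 (SD, n = 4), and Fgfr1 and Fgfr2 stood clear of each other and of the rest.

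Of the ligands, Fgf7, the keratinocyte growth factor that stromal cells make for epithelia, was at 49.6, 213 and 92.4 CPM in skin Ebf2+, at 87.9, 124 and 106 CPM in skin Ebf2- and at 305, 66.2, 112 and 290 CPM in bone marrow. Skin Ebf2- was the most even group, and the other groups ran below and above it. Bone marrow 1 and 4 were high and bone marrow 2 and 3 were within the skin range. The log2 fold changes were 0.16 ± 0.64 for skin Ebf2+ over skin Ebf2-, -0.71 ± 0.62 for skin Ebf2+ over bone marrow and -0.87 ± 0.63 for skin Ebf2- over bone marrow.

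Fgf10, a mesenchymal ligand for the epithelial form of Fgfr2 that is needed for limb outgrowth, was at 51.2, 10.7 and 22.5 CPM in skin Ebf2+, at 34.4, 81.8 and 34.996 CPM in skin Ebf2- and at 66.4, 41.8, 24.8 and 65.0 CPM in bone marrow. The groups overlapped, with the lowest values in skin Ebf2+ 2 and 3. The log2 fold changes were -0.84 ± 0.75 for skin Ebf2+ over skin Ebf2-, -0.81 ± 0.64 for skin Ebf2+ over bone marrow and 0.03 ± 0.62 for skin Ebf2- over bone marrow.

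Fgf18, which acts on cartilage and bone and keeps hair follicle stem cells at rest, was at 94.5, 5.68 and 19.0 CPM in skin Ebf2+, at 15.3, 22.6 and 15.3 CPM in skin Ebf2- and at 13.0, 53.9, 125 and 11.9 CPM in bone marrow. Skin Ebf2+ 1 and bone marrow 2 and 3 were high, and the groups overlapped. The log2 fold changes were 1.16 ± 0.97 for skin Ebf2+ over skin Ebf2-, -0.36 ± 0.95 for skin Ebf2+ over bone marrow and -1.52 ± 0.99 for skin Ebf2- over bone marrow. Of 6 chondrocyte markers 5 were measured, and they summed to at most 63.4 CPM in the skin libraries and to 2456, 1681, 10150 and 2548 CPM in bone marrow 1 to 4. Bone marrow 3 was highest in both measures, while bone marrow 2, second in Fgf18, had the lowest marrow sum of these markers. Most of that sum in bone marrow was Chad, a matrix protein of cartilage, at 2313, 1559, 9323 and 2429 CPM. All 6 osteoblast markers were measured, and they summed to 18.97, 27.2 and 91.3 CPM in skin Ebf2+, to 80.96, 38.2 and 29.05 CPM in skin Ebf2- and to 287, 513, 831 and 273 CPM in bone marrow 1 to 4, the same order over the bone marrow libraries as for Fgf18. The part of chondrocyte or osteoblast RNA in the Fgf18 level was not tested.

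Fgf2, the ligand commonly added to cultures of mesenchymal cells, was at 60.5, 3.32 and 2.27 CPM in skin Ebf2+, at 13.1, 22.5 and 1.57 CPM in skin Ebf2- and at 4.65, 15.4, 20.4 and 4.90 CPM in bone marrow. Skin Ebf2+ 1 alone was above the range of the other libraries. The log2 fold changes were 0.82 ± 1.39 for skin Ebf2+ over skin Ebf2-, 0.96 ± 1.18 for skin Ebf2+ over bone marrow and 0.13 ± 1.18 for skin Ebf2- over bone marrow. Exons of Fgf2 overlap those of Nudt6 on the opposite strand by 640 bp, and since it is not known whether reads were counted by strand, reads of the pair there cannot be told apart. Fgfr2 likewise shares 314 bp of annotated exon with Ctbp2 on its own strand.

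Per kilobase, Fgf7 led the 4 ligands in 7 libraries and Fgf18 in the other 3. Fgf18 led in skin Ebf2+ 1 with 69.3% of the ligand level, in bone marrow 2 with 58.9% and in bone marrow 3 with 71.0%. Bone marrow 1 and 4, by contrast, had 78.3% and 78.2% Fgf7. The 3 skin Ebf2- libraries were alike, with 48.8% to 61.1% Fgf7 and 24.2% to 26.2% Fgf18. The mean ligand levels per kilobase were 36.5 ± 26.2 CPM for Fgf7 and 33.5 ± 40.4 for Fgf18 in skin Ebf2+ (SD, n = 3), 32.6 ± 5.58 and 15.0 ± 3.53 in skin Ebf2- (SD, n = 3), and 59.6 ± 37.6 and 42.9 ± 44.6 in bone marrow (SD, n = 4), so that this pair stood apart beyond its spread in skin Ebf2- but overlapped in skin Ebf2+ and in bone marrow. Fgf10 followed at 6.12 ± 4.52 CPM per kilobase in skin Ebf2+, 10.95 ± 5.91 in skin Ebf2- and 10.8 ± 4.35 in bone marrow, and Fgf2 was lowest in all 3 groups at 3.25 ± 4.91 CPM per kilobase in skin Ebf2+, 1.83 ± 1.55 in skin Ebf2- and 1.67 ± 1.16 in bone marrow.

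**Figure D3:**
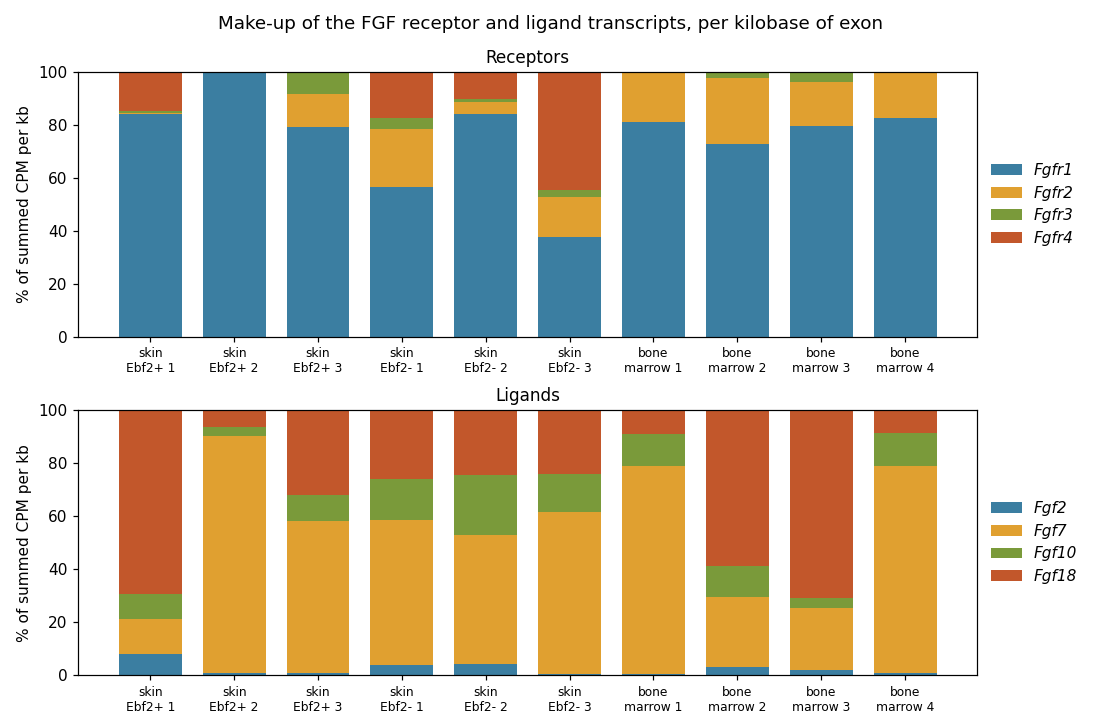
Share of each gene in the summed CPM per kilobase of exon of the 4 receptors (upper panel) and the 4 ligands (lower panel), in percent (vertical axis), for each library (horizontal axis). Fgfr1 fills most of every receptor bar except skin Ebf2- 3, and the ligand bars are led by Fgf7 in 7 libraries and by Fgf18 in skin Ebf2+ 1, bone marrow 2 and bone marrow 3.

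Across the comparisons, none of the 8 members passed for skin Ebf2+ against skin Ebf2- (edgeR adjusted p = 0.99986 for each). None had an unadjusted p below 0.05 either, DESeq2 and limma-voom also called none, and no member separated the groups without overlap. Of the 13477 genes tested, 0% passed and 343 (2.55%) had an unadjusted p below 0.05 by edgeR, and 6.68% did not overlap. Against bone marrow, 0 of 8 members passed for skin Ebf2+ by edgeR, where 0.923% of 14520 genes did. There 2 members, Fgfr2 and Fgfr4, had an unadjusted p below 0.05 (14.6% of genes) and 1, Fgfr2, did not overlap (13.7% of genes). DESeq2 called Fgfr4 in that comparison and limma-voom called none, and how many of all genes each called is given below under the dependence on processing. For skin Ebf2- against bone marrow 1 of 8 passed, Fgfr4, where 0.730% of genes did, and 2, Fgfr1 and Fgfr4, did not overlap (18.7% of genes). The median log2 fold change of the members was -0.26, -0.35 and -0.16 in these 3 comparisons, against 0.01, 0.09 and 0.06 over all genes tested. The last pair of comparisons shares the bone marrow libraries.

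**Figure D4:**
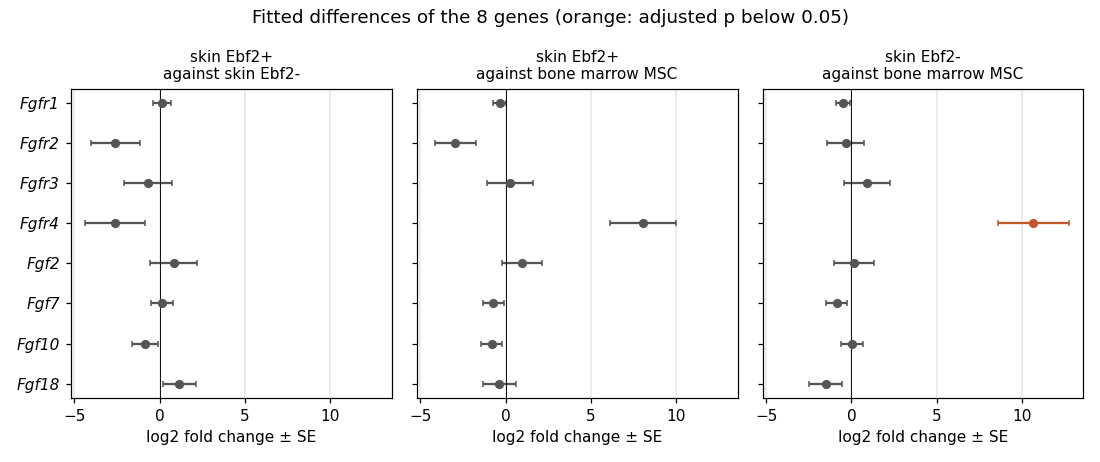
Fitted log2 fold change ± SE (horizontal axis) of each member (vertical axis) in the 3 comparisons, with positive values higher in the group named first. Only Fgfr4 in skin Ebf2- against bone marrow (10.66 ± 2.08, orange) has an edgeR adjusted p below 0.05.

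Other secreted ligands were sparse. Of a list of 14, Fgf1, Fgf5, Fgf9 and Fgf16 were in the count table and the others are not analysed here. Fgf1, a ligand that binds all FGF receptors, fell in skin Ebf2- relative to bone marrow (log2 fold change -11.27 ± 1.85, edgeR adjusted p = 0.0143), the only 1 of the 4 to pass by edgeR in either comparison with marrow. DESeq2 called both Fgf1 and Fgf9 lower in each skin group than in bone marrow, and limma-voom called neither. DESeq2 called many more of all genes than edgeR, as given below under the dependence on processing. Fgf1 had 1 read over the 3 skin Ebf2- libraries and 6470 reads in bone marrow, at 143, 18.8, 11.7 and 139 CPM in bone marrow 1 to 4. By reads the bone marrow to skin Ebf2- ratio was 2804 with a 95% counting interval of 503 to 110782. Without skin Ebf2- 1, 2 or 3 the edgeR adjusted p was 0.0895, 0.0860 and 0.0682. In skin Ebf2+ Fgf1 was at 0, 2.27 and 0.938 CPM, below every bone marrow library, with a log2 fold change of -6.16 ± 1.39 (edgeR adjusted p = 0.0607).

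Fgf9, a cartilage and skeletal ligand, was at 0.116, 0.175 and 1.09 CPM in skin Ebf2+, at 0.147, 0.277 and 5.25 CPM in skin Ebf2- and at 8.62, 24.6, 131 and 8.35 CPM in bone marrow. Every skin library was below every bone marrow library. The log2 fold change was -6.49 ± 1.73 for skin Ebf2+ over bone marrow (edgeR adjusted p = 0.102) and -4.51 ± 1.55 for skin Ebf2- (edgeR adjusted p = 0.232). DESeq2 gave adjusted p-values of 3.57e-05 and 0.00910, and limma-voom 0.181 and 0.232. The chondrocyte and osteoblast marker sums given above were also higher in every bone marrow library than in any skin library, and the osteoblast sum ranked bone marrow 1 to 4 in the same order as Fgf9. The part of either in the Fgf9 level was not tested.

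Among 18 co-receptors and FGF-binding proteins 16 were tested, and Gpc3, a heparan sulphate carrier anchored in the cell membrane, rose in skin Ebf2+ relative to bone marrow. Gpc3 was at 647, 421 and 1455 CPM in skin Ebf2+ and at 107, 83.1, 20.1 and 109 CPM in bone marrow (log2 fold change 3.40 ± 0.69, edgeR adjusted p = 0.0407), with no overlap. The call was kept without skin Ebf2+ 2 (edgeR adjusted p = 0.0399) and lost without skin Ebf2+ 1 (0.0811), skin Ebf2+ 3 (0.0636) or any bone marrow library (0.103, 0.102, 0.0788 and 0.0967 without 1, 2, 3 and 4); with bone marrow 1 and 4 summed it was 0.104. Skin Ebf2-, at 322, 216 and 792 CPM, was also above every bone marrow library, with a log2 fold change of 2.48 ± 0.67 (edgeR adjusted p = 0.119). No other member of that list passed in any comparison. No heparan sulphate enzyme (14 tested) and no receptor adaptor or kinase (19 tested) passed in any comparison by edgeR. With an unadjusted p below 0.05 by edgeR there was 1 such enzyme in skin Ebf2- against bone marrow (12.2% of all genes). None of these genes had one for the skin groups (2.55% of all genes) or for skin Ebf2+ against bone marrow (14.6%). In skin Ebf2- against bone marrow DESeq2 also called 1 enzyme, Sulf1, and neither DESeq2 nor limma-voom called any other. The counts of these tools over all genes are given below under the dependence on processing. Sulf1, picked out once its values had been seen, was at 168, 207 and 160 CPM in skin Ebf2+, at 108, 124 and 119 CPM in skin Ebf2- and at 288, 261, 321 and 276 CPM in bone marrow, with no overlap between any of the groups. Sulf2, which like Sulf1 trims sulphate from heparan chains, was at 241 ± 114 CPM in skin Ebf2+, 446 ± 151 in skin Ebf2- (SD, n = 3 each) and 295 ± 53.6 in bone marrow (SD, n = 4).

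The feedback inhibitors and target genes of FGF signalling were lowest in skin Ebf2- for part of the list. Of 17 tested, 13 had positive log2 fold changes for skin Ebf2+ over skin Ebf2- (median 0.53, against 0.01 over all genes). By edgeR 3 of the 17 had an unadjusted p below 0.05, where 2.55% of all genes tested did. By edgeR or limma-voom 0 passed, and 2 passed by DESeq2, Spry4 and Etv4. How many of all genes DESeq2 called, and limma-voom against bone marrow, is given below under the dependence on processing. For skin Ebf2- over bone marrow 14 of 17 were negative (median -0.60, against 0.06 over all genes). There 1 passed by edgeR (Etv1), where 0.730% of all genes did, 3 by DESeq2 (Etv1, Spry4 and Etv4) and 1 by limma-voom (Etv4). An unadjusted p below 0.05 by edgeR was found for 3 of the 17, where 12.2% of all genes tested had one. For skin Ebf2+ over bone marrow 7 were positive and 10 negative (median -0.09, against 0.09), and 0 passed by edgeR, DESeq2 or limma-voom. Of the 17, 1 had an unadjusted p below 0.05 by edgeR, where 14.6% of all genes did. Other receptor tyrosine kinases use the same cascade, so these genes do not report on FGF alone.

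Etv1, an ETS transcription factor, was at 33.7, 45.5 and 28.6 CPM in skin Ebf2+, at 4.18, 14.3 and 6.73 CPM in skin Ebf2- and at 107, 35.6, 50.8 and 99.6 CPM in bone marrow. Every skin Ebf2- library was below every library of the other groups. Etv1 fell in skin Ebf2- relative to bone marrow (log2 fold change -3.12 ± 0.65, edgeR adjusted p = 0.0489). That call was lost on leaving out any 1 library of the comparison: the edgeR adjusted p was 0.194, 0.0788 and 0.178 without skin Ebf2- 1, 2 and 3, and 0.140, 0.0615, 0.0945 and 0.133 without bone marrow 1, 2, 3 and 4. With bone marrow 1 and 4 summed it was 0.132. For skin Ebf2+ over skin Ebf2- the log2 fold change was 2.09 ± 0.79 (edgeR adjusted p = 0.99986).

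Spry4 and Etv4 fall outside the rule for named genes; they were picked once their values had been seen. Spry4, a Sprouty inhibitor of receptor tyrosine kinase signalling, was at 133, 159 and 34.9 CPM in skin Ebf2+, at 16.6, 15.9 and 8.69 CPM in skin Ebf2- and at 60.3, 55.8, 45.9 and 63.0 CPM in bone marrow. Etv4, an ETS factor related to Etv1, was at 14.1, 15.0 and 4.92 CPM in skin Ebf2+, at 0.147, 0 and 0.157 CPM in skin Ebf2- (4 reads in all) and at 18.5, 3.13, 6.86 and 19.8 CPM in bone marrow. Both were lower in every skin Ebf2- library than in any library of the other groups. The log2 fold changes of skin Ebf2+ over skin Ebf2- were 2.99 ± 0.73 for Spry4 and 6.69 ± 1.71 for Etv4 (edgeR adjusted p = 0.873 for both), and DESeq2 gave adjusted p-values of 0.0130 and 0.000259. Skin Ebf2- over bone marrow gave -2.03 ± 0.57 for Spry4 (edgeR adjusted p = 0.135) and -6.81 ± 1.47 for Etv4 (edgeR adjusted p = 0.0558). There DESeq2 gave adjusted p-values of 0.0142 for Spry4 and 4.95e-07 for Etv4, and limma-voom 0.215 and 0.0465. The 6 mural cell markers summed to 804, 3294 and 635 CPM in skin Ebf2+, to 106, 38.2 and 69.8 CPM in skin Ebf2- and to 220 to 381 CPM in bone marrow. The sum was thus also lowest in skin Ebf2-. In bone marrow 1 to 4 much of it was Cspg4, at 134, 123, 312 and 139 CPM. Myh11, Acta2, Tagln, Rgs5 and Notch3 each overlapped between bone marrow and skin Ebf2-. Their means in bone marrow and skin Ebf2- were 7.10 and 0.425 CPM for Myh11, 54.6 and 34.2 for Acta2 and 6.26 and 6.27 for Tagln. For Rgs5 they were 1.04 and 0.277 CPM and for Notch3 43.9 and 8.52 CPM. The part of mural cells in the levels of Etv1, Spry4 and Etv4 was not tested.

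**Figure D5:**
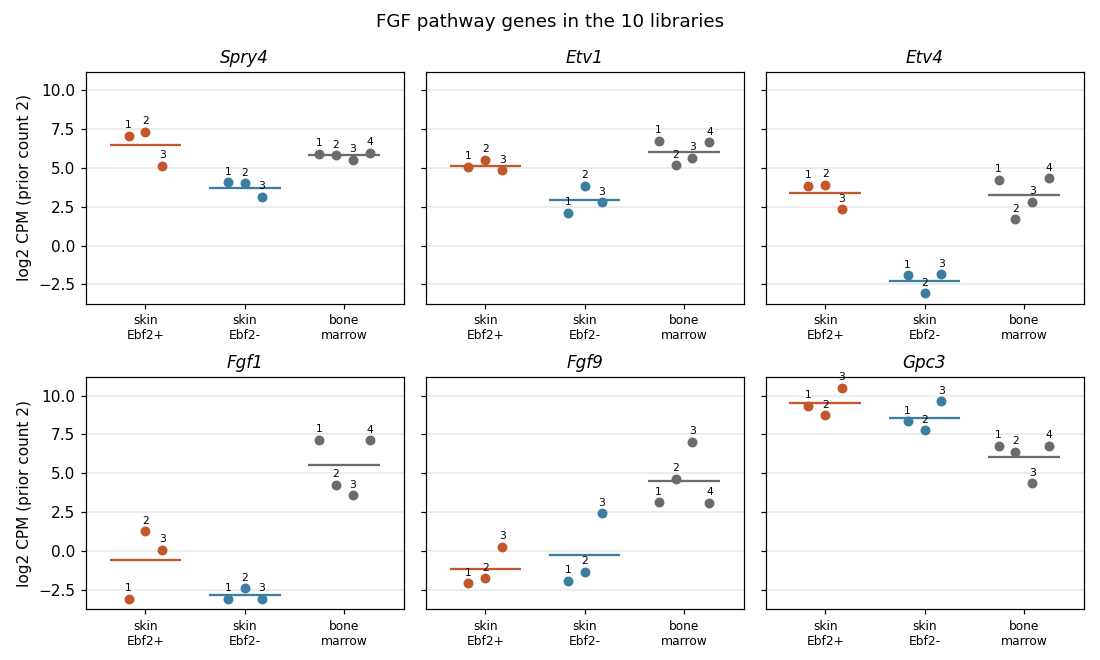
Level of 3 feedback and target genes (Spry4, Etv1, Etv4), a pair of further ligands (Fgf1, Fgf9) and Gpc3 in every library, as log2 CPM (vertical axis), for skin Ebf2+, skin Ebf2- and bone marrow (horizontal axis). Points are libraries with their replicate number and bars are group means; Spry4, Etv1 and Etv4 are lowest in the skin Ebf2- libraries, and Fgf1 and Fgf9 are highest in bone marrow.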

How the data were processed

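RNA of freshly sorted skin and bone marrow cells was amplified with SMART-Seq v4, made into Nextera XT libraries and read as 75 bp single-end reads on 1 of a pair of instruments, per the labels' protocols, which do not say which library ran on which. Per the submitters' processing notes, STAR 2.6.1d, featureCounts and DESeq2 were used, and per the file headers reads were aligned to GRCm38. The authors deposited unnormalized gene counts, 14995 genes by 10 libraries. The authors' deposited log2 fold changes and adjusted p-values are quoted only where named, and 10 columns of normalized values were not used. Columns were matched to samples through their names; reading the S number as the replicate is an assumption.

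Testing used edgeR 4.0.16 under R 4.3.3 (quasi-likelihood test, TMM scaling, filterByExpr, two-sided, Benjamini-Hochberg adjustment over all genes tested, threshold 0.05). The skin comparison used a fit of 6 libraries, and each comparison of a skin group with bone marrow a fit of all 10. The SE is the log2 fold change divided by the square root of F. CPM values are TMM-scaled, and log2 CPM has a prior count of 2. Counting intervals hold counting error alone, and reads amplified by PCR carry no molecular identifiers here, so they are not independent. The fits were run on simulated counts with the same spread for every gene and large changes in genes well above 0. How the fits perform for genes near 0 reads or with a wider spread was not tested. Alternatives were DESeq2 1.42.0, limma-voom (limma 3.58.1), RLE scaling, other filters, a replicate block, and libraries left out or summed. The members and gene lists were chosen with earlier results of these data known. Named were all members and, of each list, up to 4 passing genes each way or the 2 with the highest mean CPM; of those chosen by CPM only some are printed.

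The labels number the replicates. Over all genes, deviations from the group mean were correlated between skin Ebf2+ and skin Ebf2- libraries. Equal numbers gave r = 0.181 for number 1, 0.221 for 2 and 0.599 for 3. Numbers 1 and 2 crossed gave 0.142 and 0.147, so only number 3 stood out and a pairing of 1 and 2 is not shown. Deviations within a group are not independent of each other. The main skin test used no pairing, and the replicate block is an alternative. Skin and bone marrow of equal number come from different strains and are not pairs. In the fits with bone marrow, the replicate block nevertheless grouped skin and bone marrow libraries of equal number. Its results there thus rest partly on groups that are not pairs.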

Additional observations from a re-analysis of the deposited data

Results flagged for a closer look

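In a group of 4 libraries, the gap of a value to the nearest other was taken as a share of the group's range. A value was picked out where this share exceeded Dixon's critical value. Chance gives that in about 1 of 20 groups only for independent, normally spread values. Here CPM was used without a log, and bone marrow 1 and 4 nearly coincide, so that rate does not hold. Fgf9 in bone marrow 3 stood at 131 CPM, far above the other bone marrow libraries at 8.35 to 24.6 CPM. The same library had the highest sum of chondrocyte markers, 10150 CPM, against 1681 to 2548 CPM in the other bone marrow libraries, and of osteoblast markers, 831 CPM, against 273 to 513 CPM. Their part in the Fgf9 level was not tested. Fgf13 in bone marrow 3 stood at 0.180 CPM, or 6 reads, where the other bone marrow libraries had 0 reads. With reads in a single library the gap spans the whole range by construction, and bone marrow 3 was the deepest library (39.4 M counts).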

How the results depend on the processing

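No member passed for skin Ebf2+ against skin Ebf2- under any of 14 alternatives. Over all genes, that comparison called 116 genes with DESeq2, 8 with the replicate block and 0 to 0 with 1 library left out, instead of 0. For skin Ebf2+ against bone marrow (134 genes) the count was 1105 with DESeq2, 223 with limma-voom, 67 with the replicate block, 237 without the skin libraries numbered 3, 76 in a fit of the 2 groups, 51 with bone marrow 1 and 4 summed, 7 with a term for the earlier study, 1 with bone marrow 4 alone, 51 without bone marrow 4 and 44 to 200 with 1 library left out. For skin Ebf2- against bone marrow (106 genes) it was 796, 293, 69, 262 (2 groups), 47 (summed), 9 (study term), 2 (bone marrow 4 alone), 46 (without it) and 34 to 58 (1 library left out).

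Fgfr4 in skin Ebf2- against bone marrow stayed positive under all 19 alternatives and passed in 6, with adjusted p between 4.54e-08 and 0.589; with the replicate block it was 0.105 and with bone marrow 4 alone 0.589. The block changed no other member's call; with it Etv1 had an adjusted p of 0.147 in that comparison and Gpc3 of 0.127 in skin Ebf2+ against bone marrow, both no longer passing. In skin Ebf2- against bone marrow Fgf1 passed in 12 of 19 and Etv1 in 4 of 19, and Gpc3 in skin Ebf2+ against bone marrow in 7 of 19. The 19 are not all distinct. The fit without bone marrow 4 is counted both as the earlier study alone and among the single libraries left out. The study term covers bone marrow 1 to 3, so it contrasts skin with bone marrow 4 only, as does the fit with bone marrow 4 alone. Directions of members that did not pass turned as follows, as log2 fold changes, and the cause was not tested. For skin Ebf2+ over skin Ebf2-, limma-voom gave -0.36 for Fgf2 and -0.068 for Fgf7, and the block -0.083 for Fgf7; leaving out 1 library gave -0.034 to 0.35 for Fgfr1, -2.15 to 1.58 for Fgf2, -0.63 to 0.53 for Fgf7 and -0.52 to 1.67 for Fgf18. For skin Ebf2+ over bone marrow, limma-voom gave -0.59 for Fgf2, the block -0.91 for Fgfr3 and -0.78 for Fgf2, and Fgfr3 was -1.74 without the skin libraries numbered 3, -0.093 with bone marrow 1 and 4 summed and -0.090 without bone marrow 4. Fgf18 was 1.73 with the study term and 1.73 with bone marrow 4 alone. Leaving out 1 library gave -2.04 to 1.49 for Fgf2, -2.10 to 0.60 for Fgf18 and -1.74 to 0.85 for Fgfr3. For skin Ebf2- over bone marrow, Fgf2 was -0.31 with limma-voom, -1.02 with the block, -0.13 with bone marrow 1 and 4 summed and -0.12 without bone marrow 4. Fgf10 was -0.37 and Fgf18 0.57 both with the study term and with bone marrow 4 alone. Leaving out 1 library gave -0.75 to 0.13 for Fgfr2, -0.60 to 0.68 for Fgf2 and -0.52 to 0.26 for Fgf10. With 1 library in an arm, its spread is assumed to be that of the other groups. At 3 or 4 libraries a group, differences over 2 SE, such as -2.94 ± 1.21 for Fgfr2 in skin Ebf2+ over bone marrow, could fall short of the threshold.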

Other observations

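The intracellular FGF homologous factors, which bind sodium channels and are not secreted, were listed with all 4 members, of which 3 were tested in each comparison and none passed by edgeR. With an unadjusted p below 0.05 by edgeR there were 0 for skin Ebf2+ against skin Ebf2- (2.55% of all genes). There were 3 for skin Ebf2+ against bone marrow (14.6%) and 2 for skin Ebf2- against bone marrow (12.2%). DESeq2 called 0, 3 and 2 in these comparisons, and limma-voom 0, 0 and 1. These calls are to be read beside the counts over all genes by the same tools, given above under the dependence on the processing. Fgf12 had 40 reads in skin Ebf2+, 249 in skin Ebf2- and 0 in bone marrow, so it was at least 38.3-fold higher in skin Ebf2+ and at least 191-fold higher in skin Ebf2- than in bone marrow, with a floor of 3 counts over the bone marrow group. Of the skin Ebf2+ reads, 0, 36 and 4 came from libraries 1, 2 and 3, so the bound for skin Ebf2+ rests mostly on 1 library: without skin Ebf2+ 2 the fitted log2 fold change over bone marrow was 4.50, against 7.29 with it. Fgf12 was picked out once its values had been seen. Fgf13 was uneven, at 0, 79.2 and 2.66 CPM in skin Ebf2+, at 7.56, 0.0691 and 7.12 CPM in skin Ebf2- and at most 0.180 CPM in bone marrow. Skin Ebf2+ 2, which had the most Fgf13, also had the highest sum of mural cell markers, 3294 CPM. The part of mural cells in the Fgf13 level was not tested. Fgf14 was at 0.466, 0.0873 and 1.17 CPM in skin Ebf2+, at 9.17, 3.04 and 0.861 CPM in skin Ebf2- and at 20.9, 7.68, 4.94 and 20.4 CPM in bone marrow, where every library was above every skin Ebf2+ library.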
